A study of Mus musculus with 6 samples.

Results

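The MHC class I presentation genes are 10 genes whose products form, load or switch on the class I complex at the cell surface. They are the heavy chain genes H2-K1, H2-D1 and H2-T23, the light chain gene B2m, the peptide transporter genes Tap1 and Tap2, the tapasin gene Tapbp, the immunoproteasome genes Psmb8 and Psmb9, and the transactivator gene Nlrc5. Members were chosen by gene symbol from the 48440 gene rows of a table of raw read counts, and all 10 were among the 15257 genes with enough reads to be tested. The RNA came from murine tissue around BMSCs-engineered cartilage (BEC), cartilage grown in vitro from rabbit bone marrow stromal cells and implanted under the skin of mice inside an electrospun PCL/collagen membrane. The study harvested its samples with the murine tissue entangled and mapped the reads to the mouse genome. The libraries may therefore also hold RNA of the rabbit cells, and whether rabbit reads were counted on mouse genes was not tested. In the 0%-Axitinib group (n = 3) the membrane carried no drug, and in the 3%-Axitinib group (n = 3) it held 3% by weight of axitinib, an inhibitor of the VEGF receptor tyrosine kinases. All 6 samples were tissue of male BALB/c nude mice taken 12 weeks after implantation. The comparison asks how the tissue next to the implant differs when the membrane releases the drug. The labels call the first group untreated controls, and it was read as the 0%-Axitinib group because the protocol names membranes of 0% and 3%. Nude mice lack a functional thymus and have few mature T cells, but keep B cells, natural killer cells and myeloid cells. Constructs of the same group shared a mouse in pairs and no label tells which; n therefore counts samples, and the p-values measure the spread between samples only.

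Class I molecules sit on nearly all nucleated cells and show peptides from inside the cell to CD8 T cells and natural killer cells. The proteasome cuts cytosolic proteins into peptides, the TAP transporter moves them into the endoplasmic reticulum, and tapasin holds empty heavy chains beside TAP until they bind a peptide and leave with beta-2-microglobulin. Interferons raise most of these genes, and endothelial cells and leukocytes are known for high class I levels, so the pathway is often read as a sign of immune activity around an implant.

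The libraries held 17761968, 16716411 and 18005908 reads on genes in 0%-Axitinib replicates 1, 2 and 3, and 9225518, 11686084 and 18403795 in 3%-Axitinib replicates 1, 2 and 3. Reads that mapped nowhere on the mouse genome made up 5.47%, 3.84% and 14.9% of the listed reads in the 0%-Axitinib samples and 48.4%, 29.2% and 16.8% in the 3%-Axitinib samples (Wilson 95% intervals of at most 0.021 percentage points either side, for counting error only). Every 3%-Axitinib value was above every 0%-Axitinib value, and an exact two-sided permutation test gave p = 0.1, the smallest that 3 against 3 samples allow. The source of these unmapped reads and their part in the results were not tested. Replicate 3 of the 0%-Axitinib group stood apart from all other libraries. Its 5 neutrophil markers summed to 18920 CPM (read counts scaled to library size by TMM), against 72.0 and 87.1 CPM in 0%-Axitinib replicates 1 and 2 and 172.5, 129 and 68.3 CPM in the 3%-Axitinib samples. S100a9 was the most abundant, and 2 of 4 tested were lower by the criterion given below, against 0 without that library, where S100a8 was higher instead (log2 fold change 1.98). The 5 erythroid markers, led by Hbb-bs, summed to 444, 392 and 21980 CPM in the 0%-Axitinib samples, against 168, 380 and 533 CPM in the 3%-Axitinib samples. All 5 were lower by that criterion over all samples and 1 was lower without that library. No marker of these lists was at 0 throughout, and their part in the results was not tested. Results that rest on this sample are given with and without it.

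All 10 genes had a log2 fold change below 0 in the 3%-Axitinib group, with a median of -0.92 against -0.03 over all 15257 tested genes. By the study's criterion, a fold change of at least 1.5 with an unadjusted p of at most 0.05, 3 of the 10 were lower (Tap1, Psmb9 and Nlrc5), where 11.7% of all tested genes were lower. The p here is that of edgeR's quasi-likelihood test; with DESeq2's Wald test 5 of the 10 met the criterion, with H2-K1 and H2-D1 added, beside 12.9% of all tested genes. None of the 10 was higher, where 9.54% of all tested genes were. In 6 of the 10 (H2-D1, B2m, Tap1, Tapbp, Psmb9 and Nlrc5), every 3%-Axitinib sample was below every 0%-Axitinib sample, as for 16.6% of all tested genes. With Benjamini-Hochberg adjustment at 0.05, edgeR's quasi-likelihood test called 0 of the 10, beside 0% of all tested genes as lower; at 0.1 it called 1 (Nlrc5), beside 2.83%. The test called 1 gene of the whole table, the circadian repressor Nr1d1, as higher; Nr1d1 is named after its value was seen. At an unadjusted p of at most 0.05 the same test held 3 of the 10 and 3585 of all tested genes. The members' adjusted p in edgeR's quasi-likelihood test with Benjamini-Hochberg adjustment ran from 0.0972 to 0.300, while DESeq2's Wald test called 2 of the 10 as lower (Nlrc5 and Tap1), beside 6.91% of all tested genes, and limma-voom called 0. Without 0%-Axitinib replicate 3 the members' median was -0.50, beside 0.02 over 15690 tested genes. In that comparison of 2 against 3 samples, 3 of the 10 met the criterion as lower (B2m, Tap1 and Nlrc5; 13.7% of all tested genes) and none as higher (14.5% of all tested genes). Tap1 and Nlrc5 also passed an adjusted p of 0.05 there, so 2 of the 10 were called as lower by edgeR's quasi-likelihood test with Benjamini-Hochberg adjustment, against 3.89% of all tested genes. These counts describe 10 chosen genes, and whether they differ from other lists of that size was not tested. In bulk tissue, fewer cells that express a gene and less RNA per cell cannot be told apart.

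**Figure D1:**
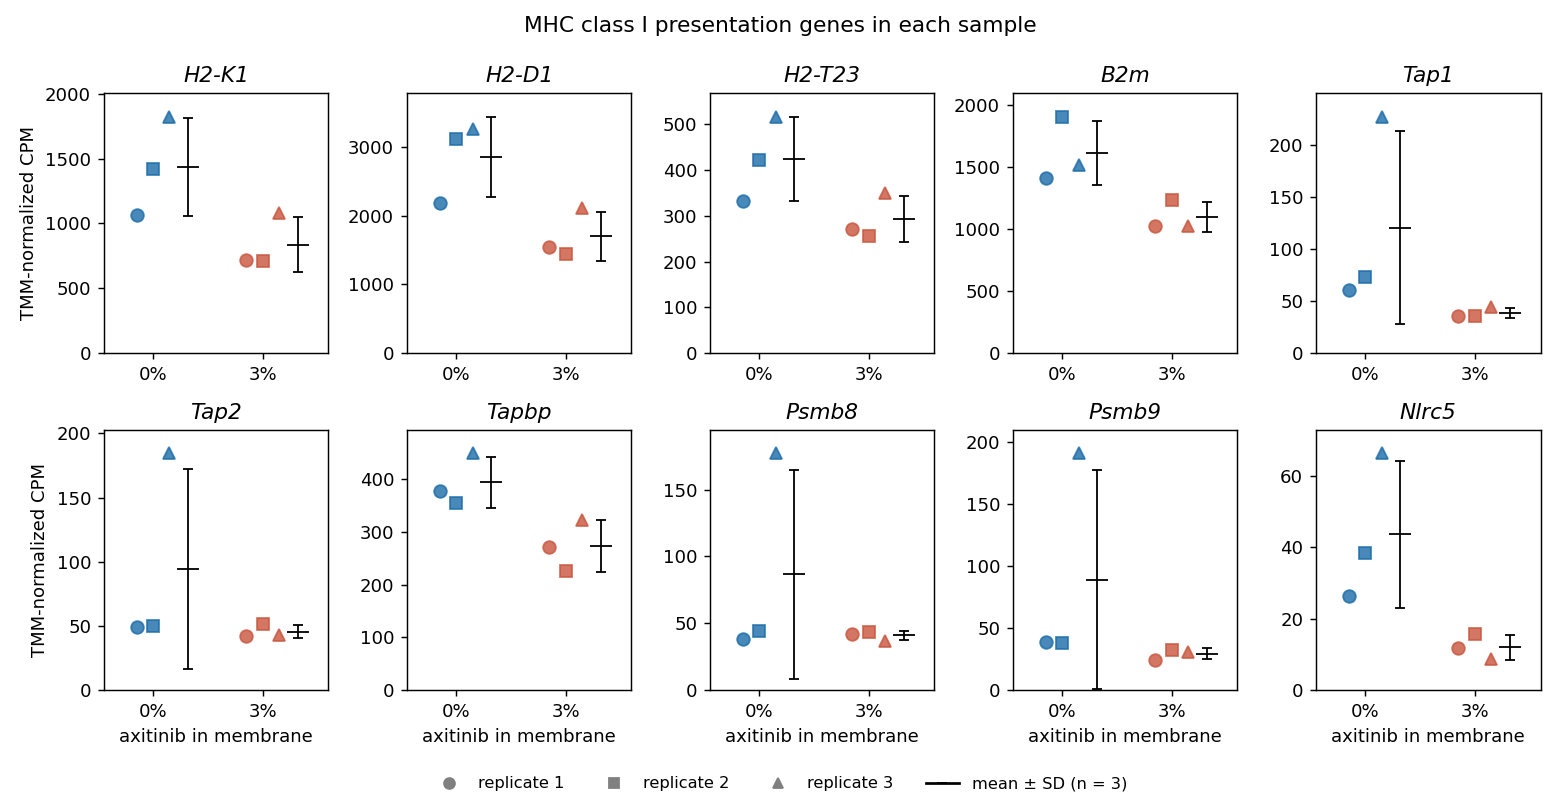
TMM-normalized CPM of each of the 10 genes in every sample, by the axitinib content of the membrane; symbols mark the replicate number and the black bar the mean ± SD of 3 samples. Replicate 3 of the 0%-Axitinib group lies 3.39 to 4.99 times above the mean of replicates 1 and 2 for Tap1, Tap2, Psmb8 and Psmb9, and 0.915 to 1.47 times that mean for the heavy chain genes, B2m and Tapbp; Nlrc5 is at 2.05 times.

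H2-K1 and H2-D1 encode the classical heavy chains that present peptides to CD8 T cells. H2-K1 had 1068, 1420 and 1823 CPM in 0%-Axitinib replicates 1 to 3 and 714, 710 and 1079 CPM in 3%-Axitinib replicates 1 to 3. The groups overlapped by 1 pair, since 3%-Axitinib replicate 3 lay just above 0%-Axitinib replicate 1. The means were 1437 ± 378 CPM and 835 ± 212 CPM (SD, n = 3), with a log2 fold change of -0.78 (SE 0.34), or -0.58 (SE 0.29) without 0%-Axitinib replicate 3. H2-D1 was measured at 2183, 3120 and 3261 CPM in the 0%-Axitinib samples, against 1546, 1439 and 2110 CPM in the 3%-Axitinib samples. Its groups did not overlap, although 3%-Axitinib replicate 3 came close to the lowest 0%-Axitinib sample. Its log2 fold change was -0.75 (SE 0.34), or -0.65 (SE 0.30) without 0%-Axitinib replicate 3. Neither gene passed over all samples: edgeR's quasi-likelihood test gave an unadjusted p of 0.0544 for H2-K1 and 0.0629 for H2-D1, with Benjamini-Hochberg adjusted p of 0.219 and 0.235. H2-K1 and H2-D1 kept nearly the same proportion to each other in every library. Per kilobase of exon, H2-K1 stood at 0.400 to 0.491 of H2-D1 in the 0%-Axitinib samples and at 0.406 to 0.449 in the 3%-Axitinib samples (exact two-sided permutation p = 0.9 on the log2 ratio; 0.975 adjusted over 13 ratios).

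H2-T23 encodes Qa-1, a nonclassical heavy chain that shows signal peptides of other class I chains to the CD94/NKG2 receptors of natural killer cells. Its levels were 332, 423 and 517 CPM in the 0%-Axitinib samples, against 272, 256 and 351 CPM in the 3%-Axitinib samples. Only 3%-Axitinib replicate 3 reached into the other group, and the log2 fold change was -0.53 (SE 0.27; adjusted p = 0.272 by edgeR's quasi-likelihood test with Benjamini-Hochberg adjustment). B2m encodes beta-2-microglobulin, the light chain that every class I molecule needs to fold and leave the cell. B2m stood at 1414, 1908 and 1520 CPM in the 0%-Axitinib samples, against 1027, 1234 and 1027 CPM in the 3%-Axitinib samples. The groups did not overlap, and 0%-Axitinib replicate 3 was not the highest sample, unlike for the other 9 genes. Its log2 fold change was -0.56 (SE 0.28) over all samples and -0.60 (SE 0.25) without that library. B2m met the criterion in the latter fit, where edgeR's quasi-likelihood test gave an unadjusted p of 0.048 and a Benjamini-Hochberg adjusted p of 0.141, against 0.277 over all samples.

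Tap1 and Tap2 encode the subunits of the peptide transporter. Tap1 had 60.5, 73.3 and 227 CPM in the 0%-Axitinib samples, against 35.6, 35.6 and 44.5 CPM in the 3%-Axitinib samples. All 3%-Axitinib samples lay below all 0%-Axitinib samples, and within the 0%-Axitinib group replicate 3 was 3.39 times the mean of the other two. Tap1 was lower by the criterion, with a log2 fold change of -1.64 (SE 0.51) over all samples and -0.80 (SE 0.17) without 0%-Axitinib replicate 3. The adjusted p was 0.136 in the former and 0.0467 in the latter, from edgeR's quasi-likelihood test with Benjamini-Hochberg adjustment. Tap2 behaved differently once that library was set aside. Its values were 49.2, 49.8 and 184 CPM in the 0%-Axitinib samples, against 42.0, 51.1 and 43.1 CPM in the 3%-Axitinib samples. Apart from the value of 184 CPM, the groups overlapped, with the remaining 0%-Axitinib samples close together and 3%-Axitinib replicates 1 and 3 below them. The log2 fold change went from -1.06 (SE 0.53) to -0.13 (SE 0.15), and neither value passed (adjusted p = 0.272 and 0.561 by edgeR's quasi-likelihood test with Benjamini-Hochberg adjustment). The proportion of Tap1 to Tap2, per kilobase of exon, was 0.849, 1.02 and 0.850 in the 0%-Axitinib samples and 0.586, 0.482 and 0.713 in the 3%-Axitinib samples. That proportion separated the groups with no large step at 0%-Axitinib replicate 3 (exact two-sided permutation p = 0.1, the smallest possible, and 0.217 adjusted over 13 ratios).

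Tapbp encodes tapasin, the chaperone that bridges TAP and the empty heavy chain. Tapbp was found at 378, 354 and 449 CPM in the 0%-Axitinib samples, against 271, 225 and 323 CPM in the 3%-Axitinib samples. The groups did not overlap, and replicate 3 was the highest in each of them. The log2 fold change was -0.53 (SE 0.24) over all samples and -0.43 (SE 0.21) without 0%-Axitinib replicate 3. Neither was called, with an adjusted p of 0.239 and 0.209 in edgeR's quasi-likelihood test with Benjamini-Hochberg adjustment. Relative to Tap1, Tapbp was higher in every 3%-Axitinib sample: the proportion per kilobase was 9.42, 7.30 and 2.98 in the 0%-Axitinib samples and 11.5, 9.55 and 10.96 in the 3%-Axitinib samples (exact two-sided permutation p = 0.1; 0.217 adjusted over 13 ratios).

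Psmb8 and Psmb9 encode catalytic subunits that replace Psmb5 and Psmb6 when the immunoproteasome forms, which changes the peptides that are cut. Psmb8 was counted at 37.9, 44.4 and 177 CPM in the 0%-Axitinib samples, against 42.1, 43.6 and 36.8 CPM in the 3%-Axitinib samples. Psmb9 was counted at 38.3, 38.2 and 191 CPM in the 0%-Axitinib samples, against 24.1, 32.4 and 30.9 CPM in the 3%-Axitinib samples. For both genes 0%-Axitinib replicate 3 was far above the other 5 samples, at 4.31 and 4.99 times the mean of 0%-Axitinib replicates 1 and 2. Psmb8 overlapped between the groups apart from that library, whereas Psmb9 did not overlap. The log2 fold change of Psmb8 was -1.08 (SE 0.58) over all samples and -0.01 (SE 0.15) without 0%-Axitinib replicate 3. For Psmb9 it was -1.61 (SE 0.65), which met the criterion, and -0.39 (SE 0.18) without that library, which did not. The adjusted p of Psmb8 was 0.300 and 0.958, and that of Psmb9 was 0.198 and 0.173, by edgeR's quasi-likelihood test with Benjamini-Hochberg adjustment.

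The immunoproteasome subunits were also set against the constitutive subunits they replace, per kilobase of exon within each library, which removes the scaling between libraries. The proportion of Psmb8 to Psmb5 was 0.466, 0.530 and 0.945 in the 0%-Axitinib samples and 0.343, 0.350 and 0.230 in the 3%-Axitinib samples. The proportion of Psmb9 to Psmb6 was 0.152, 0.135 and 0.637 in the 0%-Axitinib samples and 0.0738, 0.0928 and 0.0861 in the 3%-Axitinib samples. Both separated the groups, also for 0%-Axitinib replicates 1 and 2 alone, and both reached an exact two-sided permutation p of 0.1 (0.217 adjusted over 13 ratios). Psmb5 and Psmb6 themselves had log2 fold changes of 0.21 (SE 0.36) and 0.31 (SE 0.18), neither of them called over all samples. Without 0%-Axitinib replicate 3, however, Psmb5 met the criterion as higher, at 0.72 (SE 0.18), so the lower proportion of Psmb8 to Psmb5 then went with a higher Psmb5 and a Psmb8 at -0.01. The remaining pair did not separate the groups: Psmb10 over Psmb7 was 3.30, 2.48 and 7.52 in the 0%-Axitinib samples and 1.94, 2.61 and 2.56 in the 3%-Axitinib samples (exact two-sided permutation p = 0.3; 0.433 adjusted over 13 ratios).

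**Figure D2:**
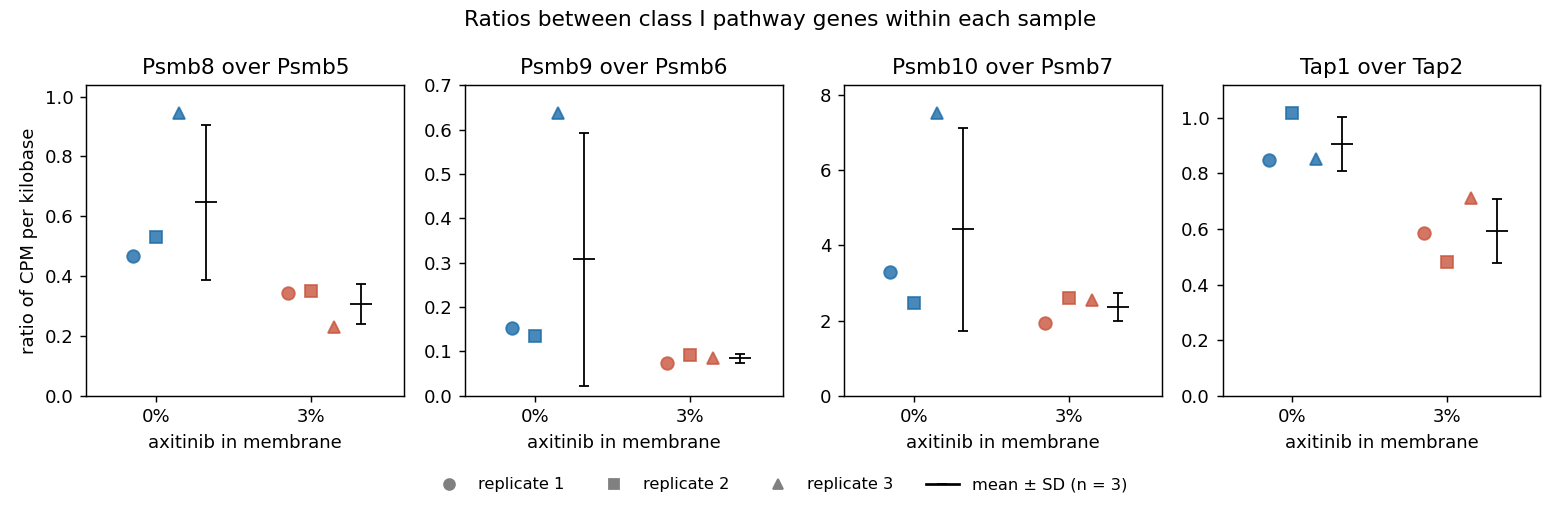
Ratios of CPM per kilobase of exon within each sample, by the axitinib content of the membrane; symbols mark the replicate number and the black bar the mean ± SD of 3 samples. Psmb8 over Psmb5, Psmb9 over Psmb6 and Tap1 over Tap2 have all 3%-Axitinib samples below all 0%-Axitinib samples, and Psmb10 over Psmb7 overlaps.

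Nlrc5 encodes the transactivator that binds class I promoters, as Ciita does at class II promoters. Nlrc5 was the member with the fewest reads, from 106 reads in 3%-Axitinib replicate 1 to 1224 in 0%-Axitinib replicate 3. Its levels were 26.3, 38.3 and 66.3 CPM in the 0%-Axitinib samples, against 11.6, 15.6 and 8.66 CPM in the 3%-Axitinib samples. The groups were separated by more than the width of the 3%-Axitinib group, with means of 43.6 ± 20.5 CPM and 12.0 ± 3.50 CPM (SD, n = 3). Nlrc5 was lower by the criterion both with and without 0%-Axitinib replicate 3, at log2 fold changes of -1.87 (SE 0.40) and -1.44 (SE 0.30). Its adjusted p was 0.0972 over all samples and 0.0457 without that library by edgeR's quasi-likelihood test with Benjamini-Hochberg adjustment. Set against the leukocyte marker Ptprc, per kilobase, Nlrc5 had 0.264, 0.236 and 0.395 in the 0%-Axitinib samples and 0.315, 0.414 and 0.191 in the 3%-Axitinib samples. That ratio overlapped throughout (exact two-sided permutation p = 1). The ratio of Nlrc5 to Ciita was 2.79, 3.52 and 4.64 in the 0%-Axitinib samples and 8.50, 19.3 and 4.11 in the 3%-Axitinib samples, where replicate 3 fell inside the other group (exact two-sided permutation p = 0.2; 0.325 adjusted over 13 ratios).

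Levels of different genes were compared as CPM per kilobase of exon. In the 0%-Axitinib group the means were 1877 for B2m, 1107 for H2-D1, 489 for H2-K1, 147 for H2-T23 and 108.5 for Tapbp. These 5 genes stood in this order in each of the 6 samples. Psmb8 (25.6 CPM per kilobase), Tap2 (25.0), Psmb9 (24.3) and Tap1 (21.97) followed close together, with an order that changed between samples. Between samples these genes spread widely, with an SD of 92.7 CPM beside a mean of 120 CPM for Tap1 and 88.0 beside 89.0 CPM for Psmb9. That spread lies between libraries, so it does not test differences between genes within a library. Nlrc5 (5.14 CPM per kilobase) was the lowest in each of the 6 samples. In the 3%-Axitinib group the means were 1274 for B2m, 658 for H2-D1, 284 for H2-K1, 101 for H2-T23 and 75.2 for Tapbp. There Psmb8 (12.1 CPM per kilobase) and Tap2 (12.0) lay above Psmb9 (7.97) and Tap1 (7.04), and Nlrc5 was at 1.41.

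**Figure D3:**
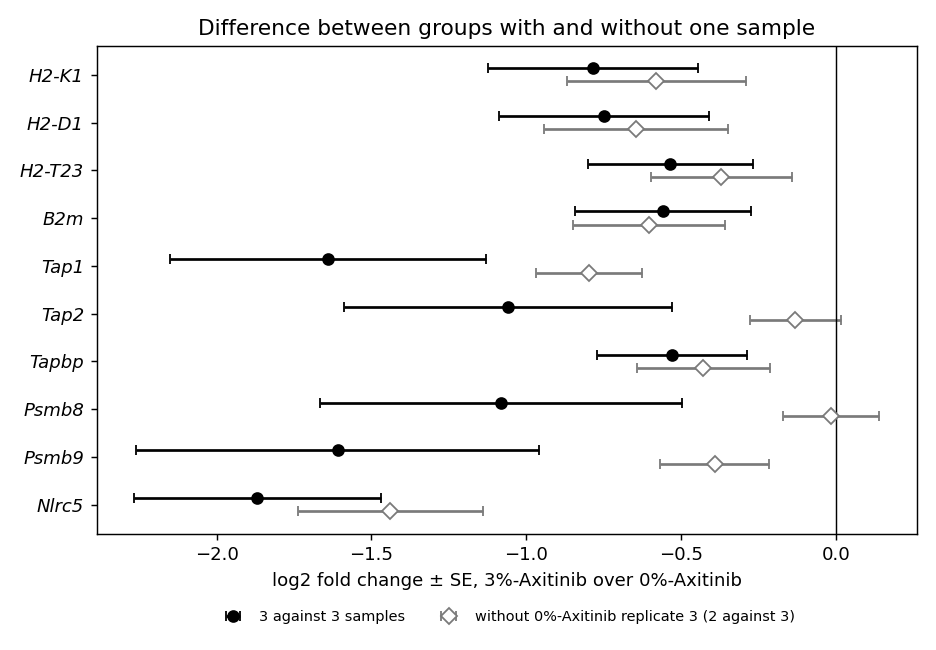
Log2 fold change ± SE of each gene, 3%-Axitinib over 0%-Axitinib, with all 6 samples (filled) and without 0%-Axitinib replicate 3 (open). All 10 filled points lie below 0; the open points of Tap2 (-0.13) and Psmb8 (-0.01) lie within 1 SE of 0, while those of Tap1 (-0.80) and Nlrc5 (-1.44) lie further below 0 than the rest.

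Single samples changed several of these calls. Tap1 and Nlrc5 met the criterion in each of the 6 fits that left out a sample, with unadjusted p in edgeR's quasi-likelihood test of at most 0.0487 and 0.0108. Psmb9 met it in 2 of the 6 and lost it without 0%-Axitinib replicate 3 and without any of the 3%-Axitinib samples. Leaving out 0%-Axitinib replicate 1 brought the count of lower genes from 3 to 6, by adding H2-K1, Tap2 and Psmb8, beside 12.0% of all tested genes. Without 0%-Axitinib replicate 2 there were 4 (Tap2 was added; 10.1% of all tested genes), and without 3%-Axitinib replicate 3 there were 4 (H2-K1 and Tapbp in place of Psmb9; 8.43% of all tested genes). Tap1 and Nlrc5 alone were left without 3%-Axitinib replicate 1 (8.24% of all tested genes) or without 3%-Axitinib replicate 2 (9.28%). Over all 14 alternatives the adjusted p ran from 0.0207 to 0.325 for Tap1 and from 0.000887 to 0.280 for Nlrc5, with Benjamini-Hochberg adjustment in edgeR's quasi-likelihood test, DESeq2 or limma. Scaling by library totals in place of TMM moved the median of all tested genes by -0.13, and 8 of the 10 then met the criterion as lower, all but Tap2 and Psmb8, beside 16.0% of all tested genes. Relative to the median of all tested genes the members' median was -0.89 with TMM and -0.88 with library totals.

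Of the 10 genes, 8 lie on chromosome 17 within the mouse MHC (GRCm38, GENCODE annotation). Psmb9, Tap1, Psmb8 and Tap2 adjoin one another in this order, at chr17:34181987-34187764 on the minus strand and chr17:34187553-34197225, chr17:34197721-34201454 and chr17:34203527-34216321 on the plus strand. These 4 neighbours are the 4 genes whose level in 0%-Axitinib replicate 3 was more than 3 times that in the other 0%-Axitinib samples. Tapbp (chr17:33915899-33929292, plus strand) and H2-K1 (chr17:33996017-34000347, minus strand) lie to one side of them. H2-D1 (chr17:35262730-35267499, plus strand) and H2-T23 (chr17:36029773-36032855, minus strand) lie to the other, and all 4 outer genes had at most 1.47 times the level of the other 0%-Axitinib samples in that library. B2m is on chromosome 2 (chr2:122147686-122153083, plus strand) and Nlrc5 on chromosome 8 (chr8:94434356-94527272, plus strand). Strand use in counting was not stated. Reads on overlapping genes were listed apart (3.55% to 5.74% of a library), so reads on shared bases may be missing from the gene counts. The effect on single genes was not tested. Tap1 and Psmb9 overlap head to head by 212 exon bases (3.87% and 5.79% of their exon bases), and 29.0% of the exon bases of Tapbp, 18.5% of Tap2 and 14.7% of Psmb8 are shared with other annotated genes.

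RefSeq promoters (GRCm38.p6, 250 bases before to 50 after the start) were found for 8 of the 10 genes, all but Tap2 and Nlrc5. They were searched on both strands for letters known from class I promoters: TGACG (the core of the X2 box), CCAAT (the Y box, read as ATTGG on the other strand), GGGNNTTCC (a kappa B type) and GAAANNGAA (the core of an interferon response element). TGACG was present in 5 of the 8 promoters (H2-K1, H2-D1, B2m, Tap1 and Psmb9) and in 20.8% of 32851 promoters in the table. CCAAT was present in 7 of the 8, all but Psmb8, and in 37.4% of all promoters. GGGNNTTCC was present in H2-K1 and H2-D1 (5.82% of all promoters) and GAAANNGAA in H2-T23 and B2m (8.56%). Tap1 and Psmb9 read the same stretch of DNA from opposite strands, so their matches are the same letters. A match is a description of the letters, not a site or a cause, and no match says only that these letters are not in this window. In H2-K1, H2-D1 and B2m, TGACG and ATTGG stood exactly 20 bases apart, an arrangement found in 3 of the 8 promoters and in 0.0944% of all promoters (31 of 32851); it was chosen after the sequences were seen. H2-K1 and H2-D1 encode alternative heavy chains, and B2m encodes the light chain that pairs with either. The promoters of H2-K1 and H2-D1 are near copies of each other, so they are not independent cases. The 30 bases from X2 to Y are printed to show the shared frame around different letters, with both boxes in capitals.
H2-K1, chr17:34000359-34000388, minus strand: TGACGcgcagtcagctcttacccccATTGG
H2-D1, chr17:35262993-35263022, plus strand: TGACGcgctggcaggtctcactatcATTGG
B2m, chr2:122147609-122147638, plus strand: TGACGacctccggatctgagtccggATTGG
The stretch of H2-K1 and that of B2m lie upstream of the annotated gene, and that of H2-D1 lies upstream of the RefSeq start but inside the first exon of a longer annotated transcript.

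The wider upstream sequence is shown for H2-K1 and B2m because these chains are made by every class I positive cell and sit on different chromosomes. Capitals mark every match to the 4 searched motifs. In H2-K1 they are GGGGATTCC of the kappa B type, then TGACG and ATTGG. In B2m they are GAAACTGAA of the interferon type, then TGACG and ATTGG.
H2-K1, chr17:34000348-34000597, minus strand: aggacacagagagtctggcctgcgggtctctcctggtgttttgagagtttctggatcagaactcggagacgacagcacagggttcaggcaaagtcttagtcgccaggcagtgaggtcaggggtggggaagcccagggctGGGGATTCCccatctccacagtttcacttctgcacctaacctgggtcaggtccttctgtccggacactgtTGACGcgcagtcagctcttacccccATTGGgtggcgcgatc
B2m, chr2:122147437-122147685, plus strand: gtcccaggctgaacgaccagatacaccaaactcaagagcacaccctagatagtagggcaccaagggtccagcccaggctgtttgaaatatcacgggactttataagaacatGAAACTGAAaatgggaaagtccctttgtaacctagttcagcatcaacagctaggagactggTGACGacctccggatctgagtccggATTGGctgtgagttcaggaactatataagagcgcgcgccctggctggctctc

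The heavy chain genes are a family of near copies, and BALB/c mice carry other alleles and another gene number than the reference genome, so their counts are uncertain one by one. Of the 50-base words in the longest coding transcript, 8.79% of those of H2-K1, 14.3% of H2-D1 and 28.8% of H2-T23 also occur in other genes, whereas B2m, Psmb8, Psmb9 and Nlrc5 share none. The 22 heavy chain rows of the table were therefore also summed. The sum was 4102, 5607 and 6732 CPM in the 0%-Axitinib samples, against 2820, 2734 and 3893 CPM in the 3%-Axitinib samples. All 3%-Axitinib sums lay below all 0%-Axitinib sums, with means of 5480 ± 1320 CPM and 3149 ± 646 CPM (SD, n = 3). The log2 fold change of the sum was -0.80 (SE 0.37), or -0.63 (SE 0.30) without 0%-Axitinib replicate 3. Neither passed, with an adjusted p of 0.245 and 0.194 in edgeR's quasi-likelihood test with Benjamini-Hochberg adjustment. H2-K1, H2-D1 and H2-T23 made up 83.2% of this sum in 0%-Axitinib replicate 3 and 87.4% to 90.9% in the other 5 samples (Wilson 95% intervals of at most 0.37 percentage points either side, for counting error only).

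Of the 18 heavy chain genes tested, members included, 9 were lower by the criterion and none was higher, at a median log2 fold change of -1.22 (8 of 19 and -0.73 without 0%-Axitinib replicate 3). Over all tested genes 11.7% were lower and 9.54% higher, or 13.7% and 14.5% without 0%-Axitinib replicate 3. These shares stand beside every list count given here. All 9 were among the 15 tested heavy chain genes outside the 10, whose median was -1.30, or -0.85 with 8 of 16 lower without that library. Of these 15, 2 had too few reads in a 3%-Axitinib sample and were tested because of their reads in the 0%-Axitinib group, and 1 of the 2 was among the 9, so the counts and medians rest in part on the filter. The other 16 heavy chain genes held 8 lower at a median of -0.98, and the other 13 outside the 10 held the same 8 at a median of -1.26 (7 of 16 at -0.70 and 7 of 13 at -0.74 without 0%-Axitinib replicate 3, counting genes with enough reads in all 5 samples). Whether these genes differed more than the members was not tested. H2-Q7 was counted at 29.0, 46.2 and 105.7 CPM in the 0%-Axitinib samples, against 7.68, 14.2 and 9.01 CPM in the 3%-Axitinib samples, and H2-Q6 at 58.6, 79.4 and 205.5 CPM and at 17.0, 23.3 and 28.2 CPM. Neither overlapped between the groups. Their log2 fold changes were -2.55 (SE 0.52) and -2.33 (SE 0.50), and -1.87 and -1.60 without 0%-Axitinib replicate 3. H2-T24 was even within the 0%-Axitinib group, at 81.5, 114.6 and 86.4 CPM, against 25.6, 18.0 and 26.9 CPM in the 3%-Axitinib samples. Its log2 fold change was -2.004 (SE 0.24) with 0%-Axitinib replicate 3 and -2.06 without it. H2-K2, H2-Q5 and H2-Q4 were lower as well, at -1.54, -1.34 and -1.30. These 3 were at -0.73, which missed the criterion, -0.998 and -0.74 without 0%-Axitinib replicate 3. In edgeR's quasi-likelihood test with Benjamini-Hochberg adjustment, the adjusted p over all samples was 0.0965 for H2-Q7 and H2-T24 and 0.0972 for H2-Q6, and without 0%-Axitinib replicate 3 it was 0.0386, 0.0379 and 0.0379. The class I-like genes, which fold like heavy chains but serve other tasks, had 0 of 4 tested meeting the criterion in edgeR's quasi-likelihood test, at a median of 0.08, and their difference from the heavy chain genes was not tested. Fcgrt, the neonatal Fc receptor and the most abundant of them, had a log2 fold change of 0.16 (SE 0.26), and Azgp1 had 0 reads in all 6 samples, which allows up to 0.325 CPM in the smallest library.

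Other genes of the pathway were described by the same fit, in which 11.7% of all tested genes were lower and 9.54% higher. Without 0%-Axitinib replicate 3 these shares were 13.7% and 14.5%. Of 13 tested genes of peptide supply, 1 was lower and none higher, at a median of -0.26. The lower gene was Erap1, the aminopeptidase that trims peptides in the endoplasmic reticulum. It had 45.5, 53.3 and 38.1 CPM in the 0%-Axitinib samples, against 26.1, 21.9 and 20.2 CPM in the 3%-Axitinib samples, with no overlap. Its log2 fold change was -1.01 (SE 0.21) and -1.13 without 0%-Axitinib replicate 3, which was its lowest 0%-Axitinib sample. Without that library Psmb5 was added as higher, and the median was 0.24; Psmb6 was the most abundant. Of 7 tested genes of loading and folding, only the chaperone Canx met the criterion, at a log2 fold change of -0.73 (SE 0.23), and Calr, the most abundant, had -0.25 (SE 0.35), at a median of -0.44. Without 0%-Axitinib replicate 3 Hspa5 was added as lower (-0.92). Of 15 tested factors known at class I promoters, 7 were lower and 1 was higher, at a median of -0.69. Among them Ciita had a log2 fold change of -2.99 (SE 0.43), Irf1 -1.42 (SE 0.46), Creb1 -1.04 (SE 0.27), Nfya -0.996 (SE 0.20) and Irf8 -0.73 (SE 0.28). The higher factor was Nfyc (0.62, SE 0.18), named after its value was seen, and Rela, the most abundant, was not called (0.35, SE 0.20). Without 0%-Axitinib replicate 3 the counts were 6 lower, with Irf8 lost (-0.61), and 2 higher, with Rfxank added (0.72), and Irf1 was at -0.66.

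Irf1 encodes a factor known to carry interferon signals to class I promoters. Its highest sample was 0%-Axitinib replicate 3, as for the transporter and immunoproteasome genes. Many other genes were also highest there, and a link between Irf1 and the members was not tested. Irf1 stood at 55.1, 51.0 and 164 CPM in the 0%-Axitinib samples, against 32.7, 33.0 and 35.0 CPM in the 3%-Axitinib samples. The groups did not overlap, and 0%-Axitinib replicate 3 was far above the other 5 samples. Of 12 tested genes of interferon signalling, 4 were lower by the criterion, among them Irf1, Ifngr2 and Irf9, beside 11.7% of all tested genes. None was higher, and the median was -0.39 with and without 0%-Axitinib replicate 3. Ifngr2, a chain of the interferon gamma receptor, had a log2 fold change of -0.82 (SE 0.19) and Irf9 of -0.66 (SE 0.23), while the kinase gene Jak1, the most abundant, had -0.11 (SE 0.23). Without 0%-Axitinib replicate 3 Irf9 was lost (-0.45) and Tyk2 was added (-0.63). Ifnb1 had 0 reads in all 6 samples. Hspa5, Rfxank and Tyk2 were named after their values were seen.

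A further list joined receptors of natural killer cells, T cells and myeloid cells with the killing genes of lymphocytes. Only some of these receptors bind class I, so its counts do not measure how class I is read. Of 8 tested, 6 were lower by the criterion, at a median of -3.02 (4 of 8 and -1.82 without 0%-Axitinib replicate 3). The shares of all tested genes were 11.7% and 13.7%. Of the 6, 5 (all but Gzma) had too few reads in a 3%-Axitinib sample to be tested on that group alone, so they were tested because of their reads in the 0%-Axitinib group, and the count and median rest on that filter. Klrd1, which encodes the CD94 receptor for H2-T23, had 0.781, 4.77 and 16.1 CPM in the 0%-Axitinib samples, against 0.877, 0.636 and 0.231 CPM in the 3%-Axitinib samples. The groups overlapped at 0%-Axitinib replicate 1. The natural killer receptors Ncr1 and Klrk1 had log2 fold changes of -3.45 (SE 0.86) and -3.42 (SE 0.98), and the killing genes Prf1, Gzma and Gzmb had -3.18, -2.86 and -2.45. Without 0%-Axitinib replicate 3 Klrd1, Ncr1, Klrk1 and Gzma were at -2.31, -2.84, -1.92 and -1.72, while Prf1 and Gzmb missed the criterion, at -2.67 and -1.61. Lilrb4a, an inhibitory receptor of myeloid cells and the most abundant of the list, had 0.46 (SE 0.35), and Klra8 had 0 reads in all 6 samples.

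Endothelial cells and leukocytes both carry class I, and their markers were counted in the same fit. There 11.7% of all tested genes were lower, or 13.7% without 0%-Axitinib replicate 3. Of 12 endothelial markers 11 were lower by the criterion, and their sum was 1019, 709 and 1096 CPM in the 0%-Axitinib samples, against 289, 317 and 442 CPM in the 3%-Axitinib samples, led by Pecam1. Of 8 leukocyte markers 2 were lower, and the sum was 2653, 3935 and 4723 CPM and 1776, 1793 and 2698 CPM, led by Laptm5. The medians were -1.30 and -0.81, and without 0%-Axitinib replicate 3 the counts were 9 and 3 at medians of -1.41 and -0.45. No marker of either list was at 0 throughout, and 6 of the 8 leukocyte markers overlapped between the groups. Ptprc, the common leukocyte antigen, had a log2 fold change of -1.84 (SE 0.27), the largest of the 8 leukocyte markers, while Laptm5 had -0.50 (SE 0.35). Relative to Ptprc, B2m per kilobase was 140, 116 and 89.4 in the 0%-Axitinib samples and 275, 322.5 and 223.5 in the 3%-Axitinib samples, all higher (exact two-sided permutation p = 0.1; 0.217 adjusted over 13 ratios). This depended on the marker: as CPM over the CPM sum of all 8 leukocyte markers, B2m was at 0.533, 0.485 and 0.322 in the 0%-Axitinib samples and at 0.578, 0.688 and 0.381 in the 3%-Axitinib samples, which overlapped. Relative to Pecam1 B2m per kilobase was 40.9, 96.8 and 45.0 and then 146, 118 and 91.2, with an overlap at 0%-Axitinib replicate 2 (exact two-sided permutation p = 0.2). The part of these cell types in the members' differences was not tested.

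The T and NK cell and the B and plasma cell lists had their highest sums in 0%-Axitinib replicate 3, as the transporter and immunoproteasome genes had their highest levels. T and NK cell markers summed to 16.3, 43.0 and 339 CPM in the 0%-Axitinib samples and to 6.69, 7.90 and 5.95 CPM in the 3%-Axitinib samples, with 8 of 9 tested lower and Nkg7 the most abundant. B and plasma cell markers summed to 155, 311 and 1188 CPM and to 39.2, 28.8 and 53.1 CPM, with 6 of 6 tested lower and Ighm the most abundant. Dendritic cell markers summed to 1432, 2276 and 364 CPM and to 415, 307 and 824 CPM, with 5 of 6 lower. This sum was almost all Itgax, which had 1388, 2246 and 315.0 CPM in the 0%-Axitinib samples and did not meet the criterion. Of the other 5, Flt3, Xcr1 and Clec9a were highest in 0%-Axitinib replicate 3, at 7.80, 3.47 and 7.15 CPM, and Zbtb46 and Cd209a in 0%-Axitinib replicate 1, at 16.7 and 19.7 CPM; these 5 are named after their values were seen. Without that library the lower counts were 6 of 9, 5 of 6 and 6 of 6. The share of all tested genes that were lower was 11.7% with that library and 13.7% without it. The filter bears on all 3 counts: 7 of the 9 T and NK cell markers, 5 of the 6 B and plasma cell markers and 4 of the 6 dendritic cell markers had too few reads in a 3%-Axitinib sample and were tested because of other samples. For most of these markers, being tested therefore went with being high in the 0%-Axitinib group. Of the T and NK cell markers, 2 also had too few reads in a 0%-Axitinib sample. No marker of these lists was at 0 throughout, and the part of these cells in the members' values was not tested. Of the 7 class II molecule genes, 6 were lower by the criterion with and without that library, at medians of -2.99 and -2.07. Their sum was 1734, 2246 and 5689 CPM in the 0%-Axitinib samples, against 524, 291 and 642 CPM in the 3%-Axitinib samples, led by Cd74. The class I chain gene H2-D1, per kilobase, was 8.80, 9.76 and 3.96 times the class II chain gene H2-Aa in the 0%-Axitinib samples and 26.4, 52.4 and 30.1 times in the 3%-Axitinib samples. Every 3%-Axitinib ratio was above every 0%-Axitinib ratio (exact two-sided permutation p = 0.1; 0.217 adjusted over 13 ratios).

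The 10 genes followed different profiles over the samples. Centred log2 CPM of the members averaged -0.04, 0.23 and 1.16 in the 0%-Axitinib samples and -0.54, -0.44 and -0.36 in the 3%-Axitinib samples. Single members differed from this mean profile by a root mean square of 0.24 (H2-K1) to 0.53 (Nlrc5) on the log2 scale over 6 samples. Among 9965 other genes with a mean of at least 10 CPM, the 5 nearest to it were Ncapd3, Msh5, Cyb5r4, Ptpn6 and Actr3, at 0.06 to 0.08. Actr3, a subunit of the Arp2/3 complex, had 459, 568.5 and 939 CPM in the 0%-Axitinib samples, against 315, 344.5 and 325 CPM in the 3%-Axitinib samples. Ptpn6, a phosphatase of blood cells, had 110, 146 and 275 CPM in the 0%-Axitinib samples, against 80.5, 99.1 and 98.6 CPM in the 3%-Axitinib samples. Their log2 fold changes were -0.87 to -1.14, a direction that the choice by profile fixes.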

How the data were processed

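Poly(A) RNA was sequenced from 6 samples, and the deposited values are raw read counts per gene symbol, which the authors made from reads filtered with fastp and mapped with STAR (version 2.5.2b in the submitters' processing notes) to mm10. The annotation release and the strand setting are not given in the sources used here. Lines of reads on no gene were kept out of library sizes: unmapped reads (3.84% to 48.4% of a library), multimapping reads (2.71% to 6.65%), reads outside genes (3.17% to 6.14%) and reads on overlapping genes (3.55% to 5.74%).

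Counts were normalized by TMM and filtered with filterByExpr (minimum count 10, minimum total 15). Groups were compared with edgeR 4.0.16 (quasi-likelihood test, Benjamini-Hochberg adjustment over all tested genes) in R 4.3.3, tested on simulated data first. Alternatives used DESeq2 1.42.0, limma 3.58.1, other scalings and filters, a replicate block and each sample left out. Single values had exact permutation tests. Exon lengths came from GENCODE M21, whose symbols matched 91.0% of the rows.

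The members, the 7 pathway and 14 marker lists and the ratios were chosen with earlier results of these data known. Named genes were all members, each pathway list's most abundant gene and up to 6 largest changes meeting the criterion with a mean of at least 1 CPM, each marker list's most abundant gene, genes at 0 throughout, and the 5 nearest profiles. Proteins were not used here, and 1 gene that this rule names is not reported here.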

Additional observations from a re-analysis of the deposited data

How the results depend on the processing

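None of the 10 genes changed sign in any of 14 alternatives. Tap1 and Nlrc5 met the criterion in all 14 and Psmb9 in 8. The number of members lower by the criterion was 3 (11.7% of all tested genes), and it was 8 with library totals (16.0%) and 5 with DESeq2's Wald test (12.9%), and ran from 2 to 6 when a sample was left out (8.24% to 13.7%; 12.0% where it was 6). After Benjamini-Hochberg adjustment at 0.05, edgeR's quasi-likelihood test called 0 members, or 1 at 0.1 (2.83% of all tested genes lower), DESeq2's Wald test called 2 (6.91% of all tested genes lower), and 0 to 2 were called when a sample was left out (2 without 0%-Axitinib replicate 3, beside 3.89%). The members' median log2 fold change was -0.92, and ran from -1.16 to -0.50 when a sample was left out. Over all tested genes, 1 passed an adjusted p of 0.05 (Nr1d1), against 1961 with DESeq2's Wald test, 15 with no filter, 2 with limma-voom (Nr1d1 and Mt1), and 0 to 1252 when a sample was left out (1252 without 0%-Axitinib replicate 3, 58 without 3%-Axitinib replicate 2). The heavy chain sum, at -0.80, passed only with DESeq2's Wald test (-0.80 there). Library totals shifted the share of lower genes among all that met the criterion from 55.1% to 70.9%. The cause of these differences was not tested.

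With the replicate number as a block, 2 of the 10 genes met the criterion (Tap1 and Nlrc5; 8.87% of all tested genes were lower), the members' median was -0.75, the heavy chain sum was -0.79, and 2 genes of the whole table passed (Art1 and Actn2). Nr1d1, Mt1, Art1 and Actn2 are named after their values were seen. The labels do not say that a number marks a shared mouse or day. Deviations from the group means correlated at 0.182, -0.115 and -0.174 across tested genes for replicates 1, 2 and 3. Not every sample correlated best with its own number. With 3 samples a group, these correlations cannot decide whether samples of the same number share anything more than the number.

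With 3 samples a group, no exact test of a single value can go below 0.1. Nlrc5 rests on the fewest reads, and the heavy chain counts depend on how near copies were assigned. Reads on overlapping genes were listed apart from the gene counts. Where 0%-Axitinib replicate 3 is left out, 2 samples stand for that group.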

Other observations

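The remaining marker lists describe what else the libraries held, beside 11.7% of all tested genes lower and 9.54% higher. Of 10 macrophage markers 0 met the criterion (edgeR's quasi-likelihood test; 1, Adgre1, without 0%-Axitinib replicate 3), at a median log2 fold change of -0.07, with sums of 11420, 11960 and 8613 CPM in the 0%-Axitinib samples, against 8169, 10670 and 16700 CPM in the 3%-Axitinib samples, led by Lyz2. Fibroblast markers summed to 25600, 12800 and 9971 CPM and to 22120, 70270 and 24770 CPM, with 1 of 6 higher, Col1a1, which was also the most abundant; its log2 fold change was 1.79 with 0%-Axitinib replicate 3 and 1.58, which missed the criterion, without it. Adipocyte markers summed to 725, 678 and 910 CPM and to 403, 289 and 287 CPM, with 2 of 6 lower and Fabp4 the most abundant; 4 of the 6 had too few reads in a 3%-Axitinib sample and were tested because of other samples.

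Skeletal muscle markers summed to 168, 8.66 and 16.5 CPM in the 0%-Axitinib samples and to 16510, 23.4 and 9237 CPM in the 3%-Axitinib samples, with 15 of 17 tested higher (10 of 17 without 0%-Axitinib replicate 3) and Acta1 the most abundant. Of the 17, 11 had too few reads in a 0%-Axitinib sample and were tested because of other samples, so the count rests in part on the filter. Their part in the results was not tested. Leaving these genes out of the TMM factors gave the members the same median log2 fold change to 2 decimals (-0.92). It left all tested genes nearly unchanged as well (1784 lower by the criterion, against 1785), so it describes the scaling only. Cartilage markers summed to 358, 212 and 166 CPM and to 308, 1233 and 473.5 CPM, with 5 of 7 tested higher and Comp the most abundant. Of the 7, 1 had too few reads in a 0%-Axitinib sample and was tested because of other samples. That marker is among the 5, and 4 of the other 6 were higher. Whether reads of the rabbit cartilage were counted on these genes was not tested. Keratinocyte markers summed to 788.5 CPM in 0%-Axitinib replicate 2 and to 3.68 to 8.33 CPM in the other 5 samples, led by Krt1, with 1 of 2 tested lower, or 2 of 3 without 0%-Axitinib replicate 3; all but 1 of those tested had too few reads in some sample. No marker of these lists was at 0 throughout.

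The table's row H2-Ea-ps is named as a pseudogene, after the reference strain. It had 3812, 4497 and 8468 reads in the 0%-Axitinib samples and 301, 166 and 689 reads in the 3%-Axitinib samples, a log2 fold change of -3.38 (SE 0.49), and was chosen after its values were seen. The class II E alpha gene is intact in BALB/c mice as background knowledge.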
